A study of Homo sapiens with 6 samples.

Results

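Transcripts of 10 genes that encode proteoglycan core proteins were measured in PC-3/Mc cells and set against PC-3/S cells, both sublines of PC-3, an established line from a human prostate carcinoma. The genes are SRGN, SDC1, SDC2, SDC4, GPC1, GPC6, VCAN, BGN, DCN and LUM, chosen by symbol from the 19775 genes of the array, and every probe set annotated with one of these symbols alone was taken, 30 of 54613 in all. The choice was made with the difference between the lines already known, so the values of these genes are given as a description and carry no test. Each line was measured on 3 one-colour Affymetrix arrays that the titles call biological replicates, with total RNA from cells harvested before they were confluent. The series asks how the epithelial-mesenchymal transition bears on tumor-initiating traits. The labels name no treatment or genetic change in either line, and do not say how the sublines were derived or whether each is 1 clone. They do not say either whether replicates came from separate cultures, so p-values measure the spread between these arrays, which may be technical.

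A proteoglycan is a protein that carries long sulfated sugar chains, the glycosaminoglycans, attached to serines of the core protein. Serglycin is the intracellular proteoglycan of secretory granules and is best known from blood cells. Syndecans span the cell membrane and glypicans are tied to it by a lipid anchor, and the heparan sulfate chains of both bind growth factors and matrix proteins. Versican is a large chondroitin sulfate proteoglycan that binds hyaluronan in loose matrix, while biglycan, decorin and lumican are small leucine-rich proteoglycans of collagen-rich stroma. A change of syndecan and versican levels is a known feature of epithelial cells that turn mesenchymal.

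Values are the deposited log2 expression values, and a difference is the mean of PC-3/Mc less that of PC-3/S, in log2 units, with a standard error (SE) from limma. Every mean ± SD and every difference ± SE rests on n = 3 arrays per line. A probe set is a group of short oligonucleotides against 1 stretch of a transcript, so levels are compared between lines within a probe set and not between probe sets. CTNNA1, known to be deleted in PC-3, read between 3.51 and 5.18 over its 5 probe sets, and the highest of these readings serves here as a rough floor picked once its values were known. Where the dimmer line averaged at or under the floor, the fold is a lower bound, computed with each array raised to it. Array medians ranged from 4.98 to 5.09. Arrays of one line correlated at 0.995 to 0.997 and arrays of different lines at 0.949 to 0.953, and 0 pairs were identical.

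Of the 30 probe sets, 19 had a reading above the floor on at least 1 array and 11 had none. At an adjusted p under 0.05, 12 were called higher and 6 lower in PC-3/Mc, beside 35.9% of all 54613 probe sets called in either direction. On the brightest probe set of each gene, 5 of the 10 genes were called higher and 4 lower, beside 45.9% of all genes called. The readings of the lines stayed apart for 19 of the 30, where the share over all probe sets was 45.3%. Because the genes were picked with this contrast known, nothing is read from these counts. The median difference of the 30 was 0.04, against -0.01 over all probe sets.

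**Figure D1:**
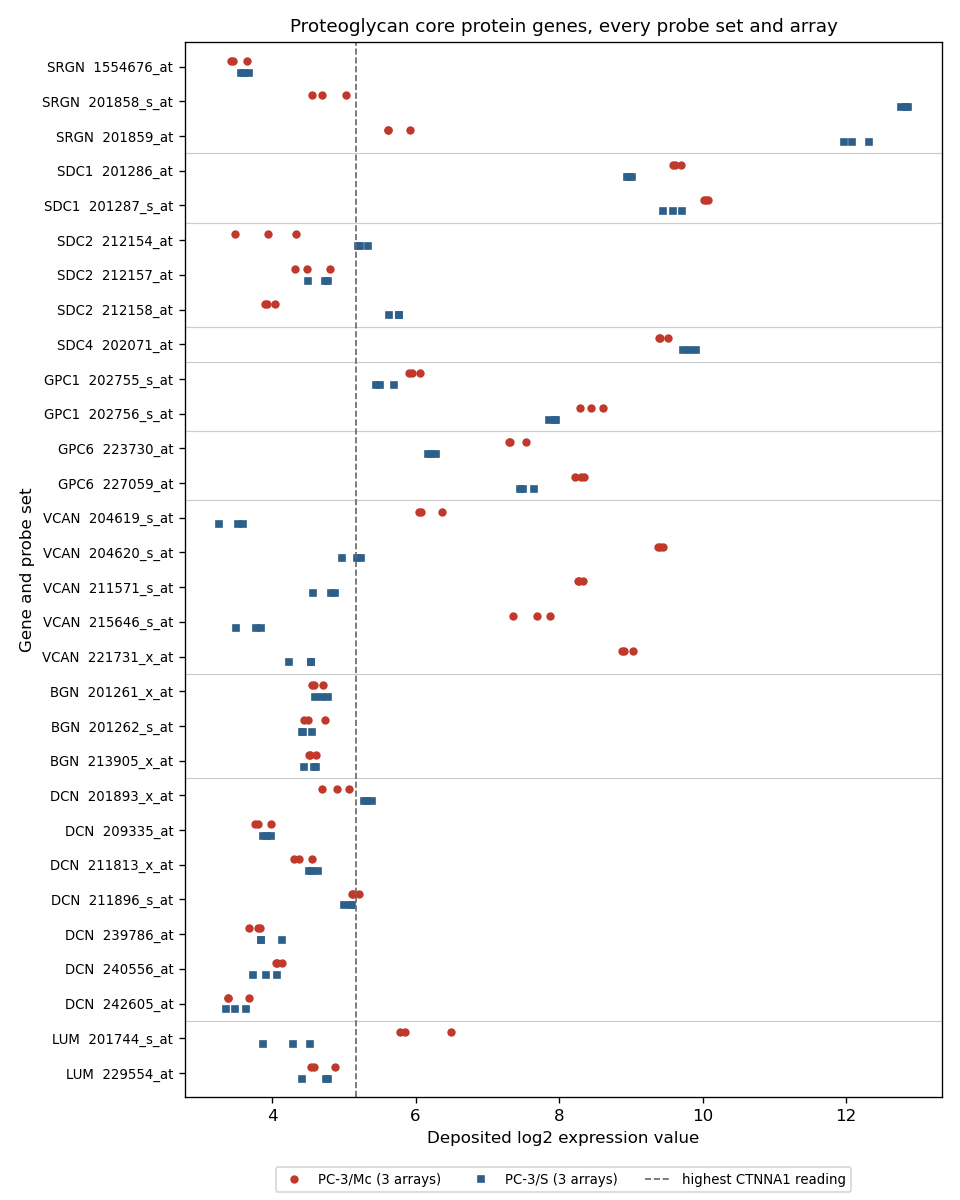
Each row is 1 probe set, the horizontal axis is the deposited log2 expression value, red circles are the 3 PC-3/Mc arrays and blue squares the 3 PC-3/S arrays. SRGN lies far to the right in PC-3/S on 2 of its 3 probe sets, VCAN lies to the right in PC-3/Mc on all 5, and the BGN readings stay left of the dashed line, the highest CTNNA1 reading (5.18).

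Serglycin, encoded by SRGN, had the largest difference of the 10 genes. On probe set 201858_s_at the PC-3/Mc arrays read 5.03, 4.56 and 4.70, all under the floor, against 12.83, 12.86 and 12.77 in PC-3/S. This is a difference of -8.06 ± 0.12, at least 199.6-fold lower in PC-3/Mc. On 201859_at the values were 5.62, 5.93 and 5.61 in PC-3/Mc, just above the floor, against 11.98, 12.08 and 12.32 in PC-3/S. The difference there was -6.41 ± 0.12, or 84.8-fold lower. The third SRGN probe set, 1554676_at, read 3.42 to 3.67 on all 6 arrays and did not separate the lines (-0.11 ± 0.09), so the abundance of serglycin mRNA in PC-3/S was seen by 2 of 3 probe sets. In bulk RNA, fewer cells that express a gene and less RNA per cell cannot be told apart.

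Serglycin is abundant in blood cells, so genes of that origin were read beside it. Over all genes 22.7% were called lower and 23.2% higher in PC-3/Mc. Of 10 leukocyte markers 3 were lower in PC-3/Mc and 0 higher (1 at an unadjusted p under 0.05), with 7 uncalled and a median difference of -0.08. The number called higher was 1 with arrays centred on their median, after quantile normalization, with genes under the 40th percentile of mean level left out, or without PC-3/Mc replicate 1. Their summed linear signal was 307 to 336 in PC-3/Mc against 602 to 642 in PC-3/S, a gap that came mostly from HCLS1 (4.10 in PC-3/Mc against 7.98 in PC-3/S). The 3 lower markers, singled out after their values were seen, were HCLS1 (at least 6.99-fold, adjusted p = 2.0e-10), a signalling adaptor, and the actin-binding genes CORO1A (-0.92 ± 0.08) and LCP1 (-0.79 ± 0.10), by limma with Benjamini-Hochberg adjustment over all genes. The defining marker PTPRC, which encodes CD45, read 3.78 to 4.03 in PC-3/Mc and 3.65 to 3.77 in PC-3/S, under the floor, as did TYROBP and FCER1G on all 6 arrays. Of the other uncalled markers, CD53 read above the floor on all 6 arrays (5.55 to 5.73 in PC-3/Mc against 5.37 to 5.46 in PC-3/S), ITGB2 on 2 of PC-3/Mc and 3 of PC-3/S, CD48 on 3 of PC-3/Mc and 1 of PC-3/S, and LAPTM5 on 1 of each line. Transcripts of the proteins that serglycin packs into granules of blood cells lay mostly under the floor. Of 16 such cargo genes, among them granzymes, mast cell proteases and neutrophil elastase, 13 read at or under the floor on all 6 arrays. Of the rest, PRF1 (5.24 to 5.63) and CTSG (5.38 to 6.03) read above the floor on all 6 arrays and were not called. The platelet chemokine gene PF4 was named by rule, at 5.27 ± 0.34 in PC-3/Mc against 6.39 ± 0.03 in PC-3/S (-1.12 ± 0.14, adjusted p = 6.5e-05 by limma). It passed the floor on 1 PC-3/Mc array and 3 PC-3/S arrays. PRTN3 (0.27) and MPO (-0.23), picked once their values were known, were also called, with every array under the floor. The PRTN3 call was lost without replicate 1 or 3 of either line, and the MPO call without any 1 array other than replicate 3 of PC-3/S. Both calls were also lost with the replicate block.

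Across the 6 arrays, with each gene centred on its own mean, the genes closest to SRGN on 201859_at by root mean square distance were BCL2A1 (0.07), FN1 (0.12), BASP1 (0.13), COX7B2 (0.19) and ARMCX3 (0.20), in log2 units. With 2 lines this measure mainly ranks genes by how close their difference is to that of SRGN, and the 5 differences lay between -6.59 and -6.04.

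The syndecans differed in direction among themselves. SDC1, the main syndecan of epithelia and plasma cells, read 9.70, 9.59 and 9.62 in PC-3/Mc against 9.02, 8.94 and 8.97 in PC-3/S on 201286_at, a difference of 0.66 ± 0.08 (1.58-fold higher in PC-3/Mc). On 201287_s_at the values were 10.02, 10.05 and 10.08 against 9.45, 9.59 and 9.72 in PC-3/S (0.46 ± 0.09). The lines did not overlap on either SDC1 probe set, though the difference was modest.

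SDC4, a widely expressed syndecan of focal adhesions, pointed the other way on its single probe set. It read 9.40, 9.41 and 9.52 in PC-3/Mc against 9.91, 9.72 and 9.81 in PC-3/S, a difference of -0.37 ± 0.09 (1.29-fold lower). Every PC-3/Mc array lay under every PC-3/S array. Both SDC1 and SDC4 were far above the floor in both lines.

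SDC2, the syndecan typical of mesenchymal cells, was near the floor. On 212158_at PC-3/Mc read 4.03, 3.94 and 3.90 against 5.77, 5.63 and 5.77 in PC-3/S, at least 1.46-fold lower, with a difference of -1.76 ± 0.09 as measured. On 212154_at the arrays read 3.48, 3.95 and 4.33 in PC-3/Mc against 5.22, 5.20 and 5.33 in PC-3/S (-1.33 ± 0.17, at least 1.05-fold). On 212157_at all 6 arrays were under the floor and the lines overlapped (-0.14 ± 0.13). A low SDC2 signal was therefore seen in PC-3/S on 2 of 3 probe sets and in PC-3/Mc on 0.

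The glypicans were both higher in PC-3/Mc. GPC6 read 7.54, 7.30 and 7.32 in PC-3/Mc against 6.22, 6.17 and 6.28 in PC-3/S on 223730_at, a difference of 1.16 ± 0.09 (2.24-fold). On 227059_at it read 8.30, 8.35 and 8.22 against 7.46, 7.49 and 7.65 in PC-3/S (0.76 ± 0.09, 1.69-fold). GPC1, a glypican often raised in carcinomas, read 8.61, 8.30 and 8.45 in PC-3/Mc against 7.95, 7.86 and 7.96 in PC-3/S on 202756_s_at (0.53 ± 0.10, 1.44-fold). On 202755_s_at it read 5.96, 5.91 and 6.06 against 5.50, 5.70 and 5.45 in PC-3/S (0.43 ± 0.10). The lines were apart on all 4 glypican probe sets, with the wider gap for GPC6.

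Versican, encoded by VCAN, was the mirror image of serglycin, clearly read in PC-3/Mc and at or near the floor in PC-3/S. On 204620_s_at PC-3/Mc read 9.45, 9.41 and 9.38 against 5.24, 4.98 and 5.19 in PC-3/S, at least 18.5-fold higher (4.28 ± 0.09). On 221731_x_at it read 8.90, 9.03 and 8.88 against 4.24, 4.54 and 4.54 in PC-3/S, at least 13.6-fold (4.50 ± 0.10). The other three probe sets ran the same way. On 211571_s_at the arrays read 8.33, 8.28 and 8.26 in PC-3/Mc against 4.57, 4.88 and 4.82 in PC-3/S (at least 8.65-fold). On 215646_s_at they read 7.69, 7.88 and 7.36 against 3.85, 3.50 and 3.77 in PC-3/S (at least 5.53-fold), and on 204619_s_at 6.05, 6.37 and 6.08 against 3.60, 3.27 and 3.52 (at least 1.98-fold). All 5 VCAN probe sets thus agreed in direction, and only 204620_s_at had PC-3/S readings above the floor, on 2 of 3 arrays.

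**Figure D2:**
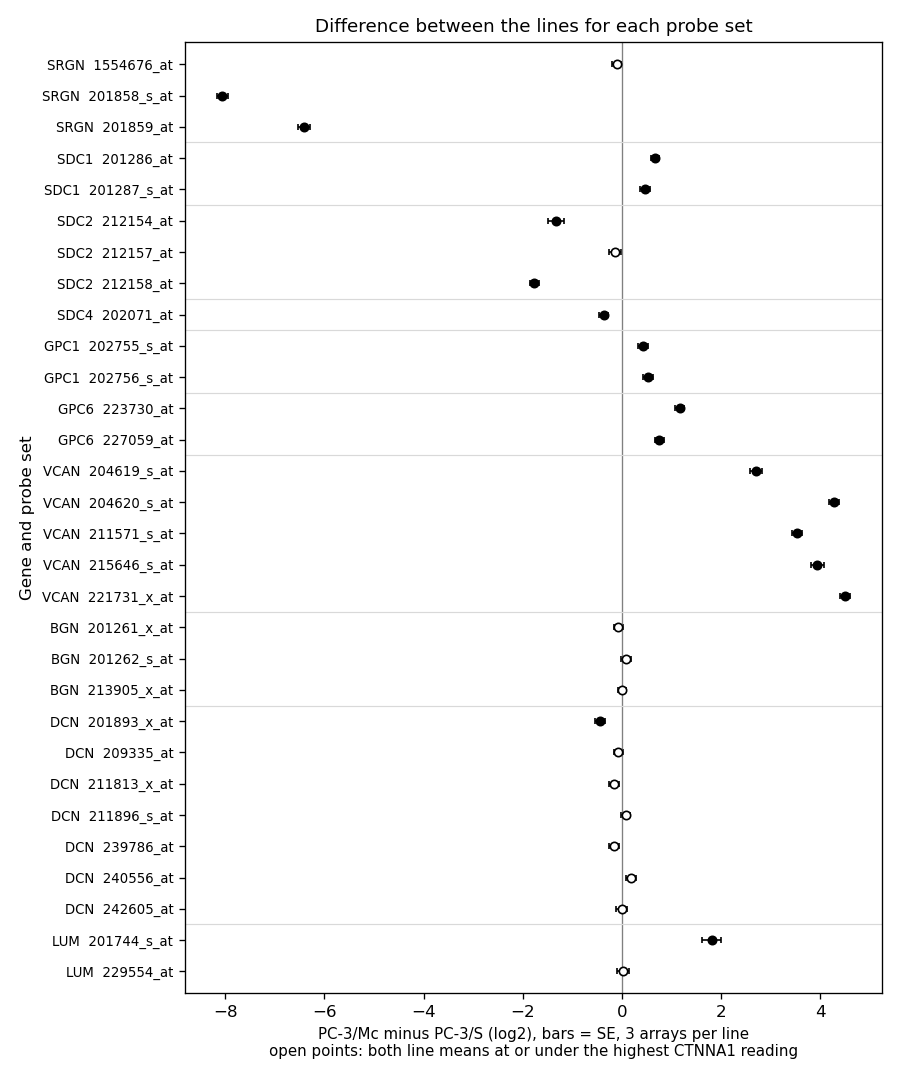
Points are log2 differences of PC-3/Mc from PC-3/S for each probe set, and bars are the SE from 3 arrays per line; open points mark probe sets whose mean was at or under the highest CTNNA1 reading in both lines. SRGN reaches -8.06 and VCAN 4.50, the syndecans lie on both sides of 0, and the biglycan points sit within 0.09 of it.

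The small leucine-rich proteoglycans of stroma were barely detected. Lumican, a keratan sulfate proteoglycan that orders collagen fibrils, is encoded by LUM and read 5.85, 6.50 and 5.78 in PC-3/Mc against 4.29, 3.88 and 4.53 in PC-3/S on 201744_s_at (1.81 ± 0.19, at least 1.82-fold higher). Its other probe set, 229554_at, read 4.54 to 4.87 in PC-3/Mc and 4.42 to 4.78 in PC-3/S, so the lines overlapped under the floor (0.02 ± 0.12). Biglycan, encoded by BGN, read 4.42 to 4.78 over its 3 probe sets and all arrays, under the floor throughout. Its differences lay between -0.08 and 0.09.

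Decorin, encoded by DCN, binds collagen and TGF-beta. Its 7 probe sets read between 3.37 and 5.39, 5 of them under the floor on all arrays. The exception was 201893_x_at, at 4.70, 4.91 and 5.07 in PC-3/Mc against 5.39, 5.28 and 5.32 in PC-3/S (-0.44 ± 0.10, at least 1.11-fold lower). Probes of an _x_at set can match more than 1 transcript. On 211896_s_at 1 PC-3/Mc array, at 5.21, passed the floor, and the lines overlapped. The other differences of DCN ran from -0.17 to 0.18.

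Stromal cells are the usual source of VCAN, LUM and DCN, so their markers were read as well. The shares called over all genes, 23.2% higher and 22.7% lower, stand beside the marker counts here. Of 10 fibroblast and stromal markers 1 was higher and 4 were lower in PC-3/Mc, with 5 uncalled and a median difference of -0.15. Their summed linear signal was 406 to 454 in PC-3/Mc against 928 to 994 in PC-3/S, a gap that came mostly from COL6A3 (4.71 in PC-3/Mc against 8.80 in PC-3/S). PDGFRA, FAP, TCF21 and DPT were at or under the floor on all 6 arrays, and the collagen genes COL6A3 (at least 12.3-fold) and COL3A1 (at least 2.05-fold) were lower in PC-3/Mc, as were ACTA2 (-0.66) and COL1A1 (-0.28), the last not without replicate 1 or 2 of either line. The marker that was higher, PDGFRB (0.35 ± 0.10, adjusted p = 0.011 by limma), was under the floor in both lines' means; these genes were singled out after their values were seen. Of 8 endothelial markers 2 were higher, PECAM1 (0.60) and ERG (0.29, under the floor), 1 was lower, KDR (-2.17), and 5 were not called (the 3 named were picked once their values were known), with sums of 308 to 337 in PC-3/Mc against 327 to 345 in PC-3/S. Without PC-3/Mc replicate 1, 2 stromal markers were higher and 3 lower, and without replicate 3 of PC-3/S 2 were higher. The ERG call was lost without any array other than replicate 2 of PC-3/Mc, and the lower endothelial markers numbered 2 without replicate 3 of PC-3/S. Their part in the VCAN, LUM and DCN values was not tested.

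The promoters of VCAN, SDC1 and SDC4 are printed because VCAN had the largest upward difference and the 2 syndecans, both well above the floor, differed in opposite directions. RefSeq windows of 250 bases before to 50 bases after the start on GRCh38.p14 were matched by symbol for 6 of the 10 genes, SDC1 with 2 start sites. Capitals mark letters of the motifs searched on both strands, the GC box GGGCGG, the TATA box TATAAA, the E-box CACCTG and the AP-1 site TGAGTCA; in the windows printed no 2 matches overlapped.
VCAN, chr5:83471494-83471793, plus strand: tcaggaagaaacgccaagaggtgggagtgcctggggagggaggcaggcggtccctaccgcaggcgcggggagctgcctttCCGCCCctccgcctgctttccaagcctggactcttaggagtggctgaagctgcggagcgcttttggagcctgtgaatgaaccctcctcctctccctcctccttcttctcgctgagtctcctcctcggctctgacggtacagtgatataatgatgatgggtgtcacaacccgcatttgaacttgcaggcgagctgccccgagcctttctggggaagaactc
SDC1, chr2:20225426-20225725, minus strand: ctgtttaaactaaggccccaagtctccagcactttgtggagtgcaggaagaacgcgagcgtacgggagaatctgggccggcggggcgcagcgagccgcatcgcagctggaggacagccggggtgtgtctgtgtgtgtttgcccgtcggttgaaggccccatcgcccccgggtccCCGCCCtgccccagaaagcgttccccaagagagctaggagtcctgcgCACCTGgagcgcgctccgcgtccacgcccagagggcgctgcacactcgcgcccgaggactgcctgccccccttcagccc
SDC4, chr20:45348375-45348674, minus strand: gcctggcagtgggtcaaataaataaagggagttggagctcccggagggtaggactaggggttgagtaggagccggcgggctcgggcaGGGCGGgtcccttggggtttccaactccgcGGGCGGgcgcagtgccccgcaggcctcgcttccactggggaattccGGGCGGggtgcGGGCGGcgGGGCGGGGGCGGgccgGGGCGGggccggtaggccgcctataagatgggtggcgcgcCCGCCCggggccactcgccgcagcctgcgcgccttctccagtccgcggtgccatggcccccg
SDC4 had 8 GC boxes, and VCAN and SDC1 had 1 each, where 45.0% of the 35116 windows held at least 1. The printed SDC1 window also held 1 E-box, found in 20.6% of windows, and the other SDC1 window none. TATAAA, held by 11.5% of windows, was in the GPC6 window alone among the 6 genes, and TGAGTCA, held by 4.95%, was in none of them. The GC content was 60.3% for VCAN, 67.7% for SDC1 and 74.0% for SDC4, against a median of 58.7%. A match of letters is a description of these windows and not evidence of binding.

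Proteoglycans act through their sugar chains, so the genes that build, modify and remove the chains, and the other core proteins, were tested between the lines. The 12 lists held 194 genes, 180 of them measured, each read from its brightest probe set. By limma with Benjamini-Hochberg adjustment over all 19775 genes, 44 were higher in PC-3/Mc (24.4%), 48 lower (26.7%) and 88 not called. Over all genes 23.2% were higher and 22.7% lower, so these shares lie near the background. The same shares over all genes are the background for the count of each list below, and no list was tested as a set. The median difference of the 180 genes was -0.03, the same as over all genes (-0.03). At least 2-fold called differences were found for 25 of the 180 (13.9%), against 11.5% of all genes.

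**Figure D3:**
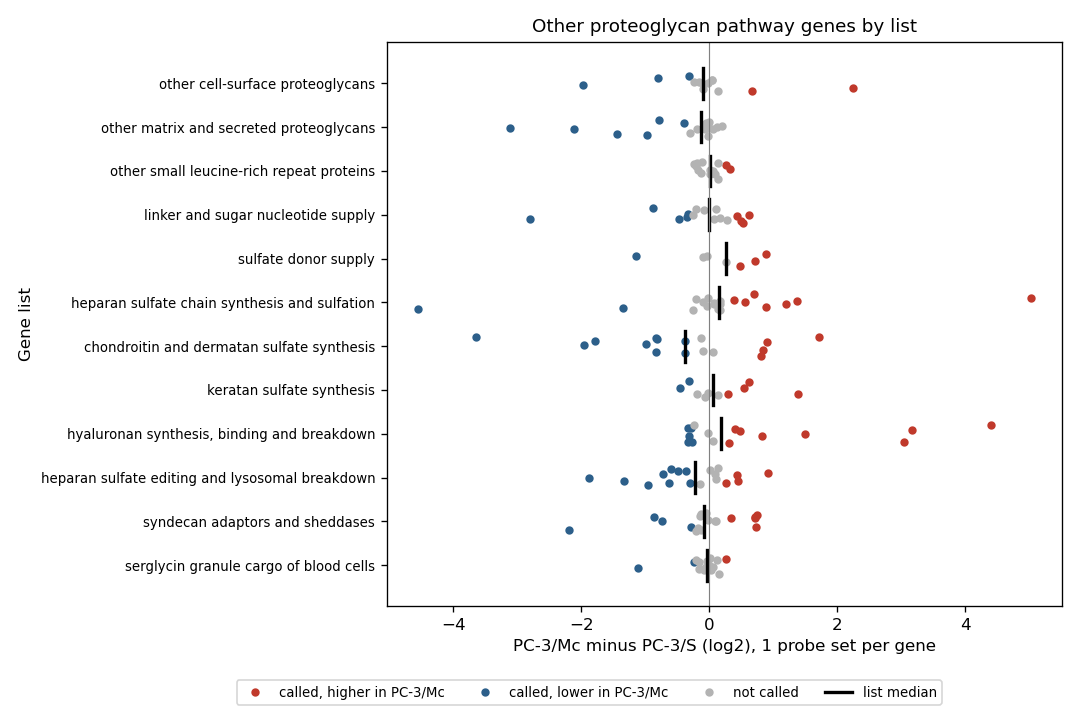
Each point is 1 gene, the horizontal axis is the log2 difference of PC-3/Mc from PC-3/S, red and blue points are called higher and lower in PC-3/Mc at an adjusted p under 0.05, grey points are not called, and vertical bars are list medians; the height of a point within its row has no meaning. The farthest points are HS3ST3A1 (5.03) and HS6ST2 (-4.56) in heparan sulfate synthesis, and the lowest list median is that of chondroitin and dermatan sulfate synthesis (-0.38).

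Genes that make, bind or break down hyaluronan, the partner of versican, included 4 of at least 2-fold difference, all higher in PC-3/Mc. Of 16 measured, 8 were higher, 5 lower and 3 not called, with a median of 0.17. The shares over all genes were 23.2% higher and 22.7% lower. TNFAIP6, whose product TSG-6 modifies and crosslinks hyaluronan, read 9.64, 9.63 and 9.59 in PC-3/Mc against 5.43, 5.05 and 5.17 in PC-3/S, 21.2-fold higher (4.40 ± 0.10, adjusted p = 1.3e-10 by limma). The PC-3/S mean lay just above the floor, which only the reading of 5.43 passed. The other TNFAIP6 probe set differed by 4.96, with a PC-3/S mean of 4.16, under the floor. HAPLN1, the link protein that locks versican onto hyaluronan, read 9.51, 9.38 and 9.34 against 6.43, 6.31 and 6.36 in PC-3/S, 8.24-fold higher, and its other three probe sets differed by 3.43 to 4.01. CEMIP, which encodes a hyaluronan-degrading protein, was higher in PC-3/Mc by at least 6.50-fold (3.16 as measured), while its other probe set differed by 0.80. The synthase gene HAS3 was higher by 2.81-fold (11.68 ± 0.06 in PC-3/Mc against 10.19 ± 0.14 in PC-3/S). The remaining higher members, picked once their values were known, were CEMIP2 (0.81), HMMR (0.48), HYAL2 (0.40) and HYAL3 (0.30).

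The synthase gene HAS2 was called lower by a small margin (-0.28 ± 0.08, adjusted p = 0.016 by limma). The HAS2 call was lost under 5 of the alternative settings. Among them were leaving out replicate 1 of PC-3/Mc (adjusted p = 0.0503 by limma) or that of PC-3/S (adjusted p = 0.0781). The other HAS2 probe set differed by 0.23. HAPLN4, LYVE1, STAB2 and ITIH2 made up the rest of the lower members, were picked once their values were known, and were under the floor on all 6 arrays. Counts of lower members in this list fell to 0 without PC-3/S replicate 1 and to 1 without PC-3/Mc replicate 1, and to 2 without replicate 2 of either line. They were also 2 with the replicate block or the mean of all probe sets, and 3 with arrays centred on their median.

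Chondroitin and dermatan sulfate synthesis, which makes the chains of versican, decorin and biglycan, had more genes lower than higher in PC-3/Mc. Of 16 measured genes, 9 were lower in PC-3/Mc and 4 higher, while 3 were uncalled, with a median of -0.38. Over all genes 22.7% were lower and 23.2% higher. CHST15, which adds a further sulfate to chondroitin 4-sulfate, read 3.69, 3.62 and 3.83 in PC-3/Mc against 7.29, 7.39 and 7.41 in PC-3/S, at least 4.56-fold lower (-3.65 ± 0.09, adjusted p = 1.5e-10 by limma). The polymerase gene CHSY3 was 3.88-fold lower and CSGALNACT2, which starts and extends the chain, 3.44-fold lower. The polymerase gene CHSY1 was lower by less (-0.38 ± 0.08).

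Against that direction, DSE, an epimerase that turns chondroitin into dermatan sulfate, was 3.28-fold higher (adjusted p = 2.0e-07 by limma). It read 8.61, 8.68 and 8.41 in PC-3/Mc against 6.73, 6.81 and 7.02 in PC-3/S. The related gene DSEL of the same list, picked once its values were known, was called lower (-0.99 ± 0.14, 1.99-fold). The 3 other DSE probe sets read under the floor in both lines. CHST11, the main chondroitin 4-O-sulfotransferase, was 1.75-fold higher (0.81 ± 0.09), and its other probe sets differed by 0.84 and 1.16. The other higher genes were CSGALNACT1 (0.90) and CHST3 (0.84), picked once their values were known.

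Heparan sulfate synthesis, which makes the chains of syndecans and glypicans, had 7 of 20 genes higher, 2 lower and 11 uncalled, with a median of 0.15. Of all genes, 23.2% were higher and 22.7% lower. The 2 lower genes were EXT1, a subunit of the chain polymerase, and HS6ST2, a 6-O-sulfotransferase. HS6ST2 read 3.93, 3.63 and 3.84 in PC-3/Mc against 8.34, 8.26 and 8.48 in PC-3/S, at least 9.08-fold lower (-4.56 ± 0.10, adjusted p = 9.7e-11 by limma), with -2.53 and -4.49 on its other probe sets. EXT1 was 2.56-fold lower, at 8.92 ± 0.05 in PC-3/Mc against 10.28 ± 0.08 in PC-3/S. Its polymerase partner EXT2, picked once its values were known, was higher (0.56 ± 0.08).

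HS3ST3A1, a 3-O-sulfotransferase, read 9.36, 9.29 and 9.18 in PC-3/Mc against 4.35, 4.23 and 4.15 in PC-3/S, at least 17.1-fold higher (5.03 ± 0.09, adjusted p = 2.2e-11 by limma). HS2ST1, the 2-O-sulfotransferase, was 2.58-fold higher, with 0.84 and 1.21 on 2 other probe sets. Without the _x_at and _s_at probe sets, whose probes can match more than 1 transcript, HS2ST1 was left with a probe set under the floor in both lines and lost its call (0.06, adjusted p = 0.73). GLCE, the epimerase of the pathway, was at least 2.00-fold higher. PC-3/Mc and PC-3/S arrays were apart for all of these genes, but the rule that named them required this, so nothing is read from it. Over all genes the share was 53.1%.

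**Figure D4:**
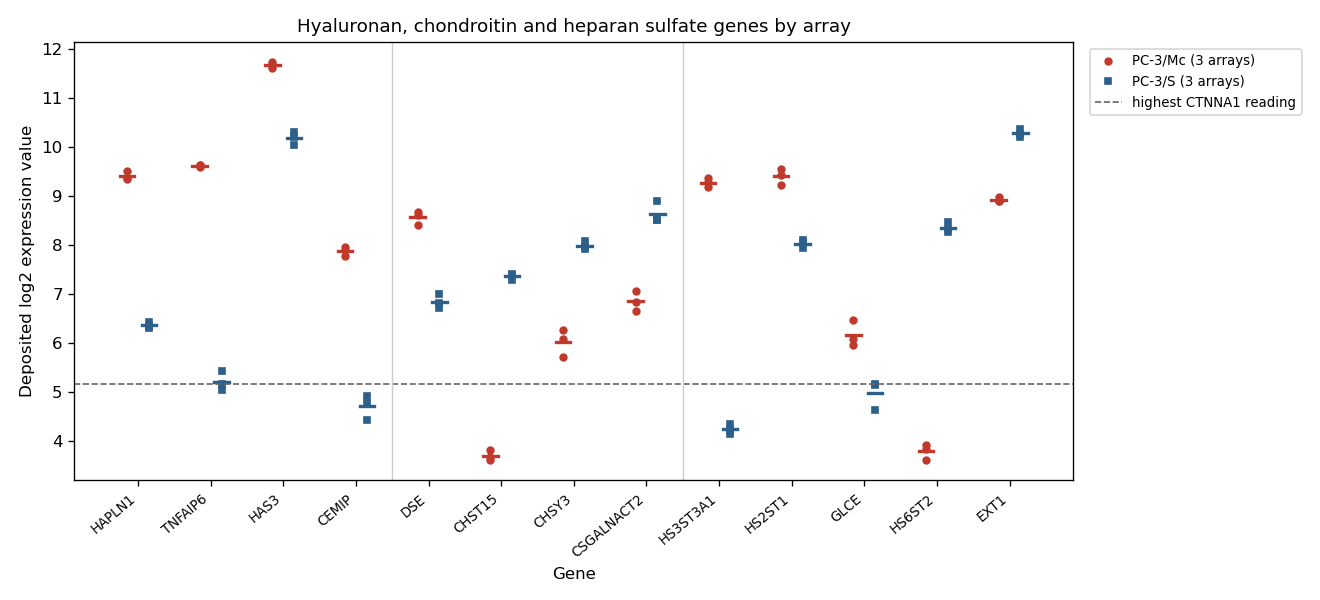
The vertical axis is the deposited log2 expression value, red circles are the 3 PC-3/Mc arrays, blue squares the 3 PC-3/S arrays, short lines the means and the dashed line the highest CTNNA1 reading (5.18); from left to right are hyaluronan, chondroitin or dermatan sulfate, and heparan sulfate genes. Only genes of these lists called with a difference of at least 2-fold are shown, so the side of each was known when it was picked. HAS2 and the other genes of the hyaluronan list that were called lower are left out. The 4 hyaluronan genes shown lie higher in PC-3/Mc, and the other 2 groups hold genes on both sides, with HS3ST3A1 (5.03) and HS6ST2 (-4.56) farthest apart.

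Other core proteins of the matrix had 6 of 16 lower in PC-3/Mc and 0 higher, with 10 uncalled. Over all genes the shares were 22.7% lower and 23.2% higher. The testican gene SPOCK1 read 5.58, 5.42 and 5.31 in PC-3/Mc against 8.64, 8.51 and 8.52 in PC-3/S, 8.69-fold lower (adjusted p = 7.6e-10 by limma). SPOCK3 was at least 2.35-fold lower, and ESM1, which encodes the endothelial proteoglycan endocan, at least 1.40-fold. AGRN (-0.98), COL18A1 (-0.78) and COL9A2 (-0.40) were lower as well, and HSPG2, which encodes perlecan, read 7.77 in both lines and was not called (adjusted p = 0.97 by limma). AGRN, COL18A1 and COL9A2 were picked once their values were known, and the COL9A2 call was lost without replicate 1 or 2 of either line. At an unadjusted p under 0.05, 0 of the 16 were higher.

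Of 13 other cell-surface proteoglycans 2 were higher, 3 lower and 8 not called. GPC4 was at least 2.67-fold lower in PC-3/Mc, at 4.80, 4.62 and 4.46 against 6.73, 6.40 and 6.66 in PC-3/S, the opposite side from GPC1 and GPC6. PTPRZ1, a receptor phosphatase that carries chondroitin sulfate, was at least 1.50-fold higher (2.25 ± 0.17 as measured). TGFBR3 (betaglycan, -0.81), CSPG4 (-0.32, under the floor) and GPC2 (0.67), picked once their values were known, were the other three called, while SDC3 was not (-0.25, adjusted p = 0.18 by limma). Among 14 other small leucine-rich repeat genes 2 were called, TSKU (0.32) and OGN (0.26, under the floor), both picked once their values were known. Both calls were lost with the replicate block, and when replicate 1 or 2 of either line was left out. Lower members numbered 0 with all arrays (1 at an unadjusted p under 0.05), 1 without replicate 1 of PC-3/Mc and 2 without its replicate 3.

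For the linker that joins chain to protein and the sugar nucleotides, 4 of 16 genes were higher, 5 lower and 7 not called. The 4 were SLC35A3 (0.62), the xylose kinase gene FAM20B (0.53), GNPNAT1 (0.49) and SLC35D1 (0.43), and beside PXYLP1 the lower ones were the linker galactosyltransferase gene B3GALT6 (-0.88), the xylosyltransferase gene XYLT2 (-0.48), GFPT1 (-0.36) and UAP1 (-0.33), all but PXYLP1 picked once their values were known. PXYLP1, a phosphatase of the linker xylose, was at least 2.69-fold lower in PC-3/Mc (-2.81 ± 0.08, adjusted p = 6.7e-10 by limma), and its other probe set, under the floor on all arrays, was not called (0.11). XYLT1, which encodes a chain-starting xylosyltransferase, was under the floor in both lines. Of 7 sulfate supply genes 1 was lower, the anion transporter gene SLC26A11 (2.22-fold), and 3 were higher, PAPSS1 (0.89), which makes the sulfate donor, BPNT1 (0.72) and the sulfate transporter gene SLC26A2 (0.48), these picked once their values were known. Keratan sulfate genes gave 4 higher and 2 lower of 10, led by B3GNT7 (at least 1.72-fold higher). Its other probe sets did not all agree: 1555963_x_at was called higher (1.18), 232337_at was not called (0.19), and 1552965_a_at was called lower (-0.36), the last 2 under the floor on all arrays. The other higher genes, B4GALT4 (0.62), FUT8 (0.54) and B4GALT1 (0.29), were picked once their values were known, and the B4GALT1 call was lost without replicate 1 or 2 of PC-3/Mc or replicate 2 of PC-3/S. The 2 lower calls, B3GNT2 and CHST2 (picked once their values were known), were both lost with the replicate block and without replicate 3 of either line. CHST2 was also lost without replicate 2 of PC-3/Mc, and B3GNT2 without replicate 1 of PC-3/S.

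Removal and editing of chains had 9 of 18 genes lower in PC-3/Mc, 4 higher and 5 uncalled, with a median of -0.23. Shares over all genes were 22.7% lower and 23.2% higher. The lysosomal enzyme gene GUSB read 8.49, 8.27 and 8.33 in PC-3/Mc against 10.17, 10.25 and 10.33 in PC-3/S, 3.70-fold lower (adjusted p = 2.5e-08 by limma), and HGSNAT, which acetylates heparan sulfate for breakdown, was 2.52-fold lower. SULF2, which removes 6-O-sulfates at the cell surface, was bright and not called (9.88 ± 0.06 against 9.79 ± 0.13 in PC-3/S, adjusted p = 0.43 by limma), and SULF1 was called lower (-0.30) with every array under the floor. The heparanase gene HPSE was called higher (0.26 ± 0.09, adjusted p = 0.043 by limma), but not when replicate 1 or 3 of PC-3/Mc, or 1 or 2 of PC-3/S, was left out (adjusted p = 0.0518 to 0.18). Its dimmer probe set differed by 1.11. The other higher genes, picked once their values were known, were SUMF1 (0.92), which activates sulfatases, and the lysosomal genes GALNS (0.45) and NAGLU (0.44). The other lower genes, picked in the same way, were SGSH (-0.96), SUMF2 (-0.73), IDS (-0.63), ARSK (-0.60), ARSB (-0.49) and IDUA (-0.36).

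Syndecan adaptors and enzymes that shed or cleave core proteins had 5 of 18 members higher, 4 lower and 9 uncalled. Over all genes 23.2% were higher and 22.7% lower. ADAMTS1, a protease that cleaves versican, was 4.56-fold lower in PC-3/Mc, at 9.03, 9.16 and 8.95 against 11.20, 11.25 and 11.26 in PC-3/S (adjusted p = 5.5e-09 by limma). SDCBP, which encodes the syndecan adaptor syntenin, was higher (10.87 ± 0.13 against 10.15 ± 0.10 in PC-3/S, 1.64-fold). Also higher, and picked once their values were known, were EZR (0.74), CASK (0.72), MMP16 (0.72) and ADAM10 (0.33), and also lower were MMP14 (-0.87), PRKCA (-0.75) and TIAM1 (-0.28). The TIAM1 call was lost without replicate 3 of PC-3/Mc or replicate 1 of PC-3/S.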

How the data were processed

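The starting point was the authors' deposited table of log2 expression values for 54675 probe sets on 6 arrays; the software, background correction and normalization behind it are not given in the sources used. Base 2 was settled from the values (2.59 to 14.45), none below 0, so genes were not centred; the method of scaling between arrays stays unknown, and values entered as deposited. Levels are relative to the other probe sets of an array, and the number of arrays limits precision (median SE 0.09).

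Gene symbols came from the platform annotation: 41091 had 1 symbol, 1801 several and 11721 none, beside 62 controls. Symbols of 41037 were found by gene ID in RefSeq (GRCh38.p14). Of the listed genes, those without a single-symbol probe set were not analysed here.

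Differences were fitted with limma 3.58.1 in R 4.3.3 (lmFit, eBayes, two-sided, no covariates, Benjamini-Hochberg), over 54613 probe sets for the 10 genes and, for the lists, over 19775 genes by the probe set of highest mean. Scripts were tested on simulated data. Named list genes are up to 3 called genes per direction and list with the largest difference of at least 1 on the log2 scale, no overlap and a mean above the floor, plus SDC3, GPC4, HSPG2, EXT1, SULF1, SULF2, HPSE, CHST11, CHSY1, HAS2, HAS3, XYLT1 and SDCBP. The members and lists were chosen with earlier results of these data known. Alternatives covered centring, quantile normalization, dim genes, probe set choice, the eBayes trend, the replicate block and leaving out each array.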

Additional observations from a re-analysis of the deposited data

How the results depend on the processing

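The count of called pathway genes stayed within 1.5 times its value under every alternative run. It was 44 higher and 48 lower in PC-3/Mc as reported, 45 and 43 with arrays centred on their medians, 43 and 48 after quantile normalization, 46 and 43 with the mean of all probe sets, and 47 and 47 with an intensity trend in eBayes. Without the _x_at and _s_at probe sets it was 34 and 37 of 149 measured, and without genes under the 40th percentile of mean level 38 and 39 of 115, fewer genes being tested in both. Leaving out 1 array gave 38 to 44 higher and 38 to 50 lower, and 7975 to 9492 calls over all genes against 9083. The replicate numbers did not pair the arrays: same-numbered deviations correlated at -0.02, -0.26 and -0.38, and with the replicate block the counts were 38 and 42, and 8090 over all genes. Of 270 recomputed differences of the 30 probe sets, 266 moved by less than 1 SD, and 8, of the uncalled BGN 213905_x_at, LUM 229554_at and DCN 242605_at, changed sign while staying within 0.10 of 0; the 4 that moved by more were SDC1 (0.71 centred, 0.56 and 0.36 after quantile normalization) and SDC4 (-0.47 after quantile normalization). Of 443 recomputed differences of the 35 named list genes, 430 kept their side of the threshold and 13 lost the call; 7 of the 430, all of HSPG2, XYLT1 or SULF2 and uncalled, changed sign while staying within 0.10 of 0, and no called difference changed sign; 5 of the 13 were HAS2 and 6 HPSE. The remaining were HS2ST1 and, with the mean of all probe sets, SULF1 (-0.16, adjusted p = 0.0575 by limma). Without detection calls, differences under the floor have no firm order.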
